A study of Homo sapiens with 3 samples.

Results

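The data described here are the arrays' values for 10 genes of autophagy: ULK1, BECN1, WIPI1, WIPI2, ATG5, ATG7, ATG12, MAP1LC3B, GABARAPL1 and SQSTM1, among 19775 genes with a probe set that names a single gene. Every single-gene probe set of these genes was taken, which gave 30 of 41091 such probe sets. The genes were selected on their place in the pathway and, with WIPI1 in view, on log2 ratios of these same arrays that were already known, so their values are a description. UM-UC-3, an established human bladder cancer cell line, was transfected with a non-targeting control siRNA, with DANCR siRNA1 or with DANCR siRNA2, each at 75 nM with a lipid reagent. DANCR is a long noncoding RNA, and RNA was taken from the cells after 48 h. Each group was 1 Affymetrix array of labelled RNA from this 1 cell line, so no difference below has a replicate check and no test across samples was possible.

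The siRNA strands given in the labels are shown because they are what sets the arrays apart, with the closing overhang in capitals.
Control siRNA: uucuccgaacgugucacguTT
DANCR siRNA1: gcguacuaacuuguagcaaTT
DANCR siRNA2: gagcuagagcagugacaauTT
The intensity of the targeted DANCR was 671 on the control array, and on the siRNA1 and siRNA2 arrays it was 116 and 126, or 17.3% and 18.8% of the control. Under inhibition, the labels give 1 for the control, 0.1734 for siRNA1 and 0.1876 for siRNA2. These equal the share of DANCR left on the same arrays, so they add no separate check. The labels also give target positions of 390 for siRNA1 and 433 for siRNA2. The tag of these positions names the WDR5 coding sequence, although the siRNAs are called DANCR siRNAs, and that conflict was not resolved.

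Autophagy is the route by which a cell encloses cytoplasm in a double membrane and delivers it to the lysosome. The ULK kinase complex starts the process, and the lipid kinase complex around Beclin 1 then marks the forming membrane with phosphatidylinositol 3-phosphate. WIPI proteins bind that lipid and bring in the enzymes that couple ATG12 to ATG5 and attach LC3 and GABARAP proteins to the membrane. Receptors such as p62, encoded by SQSTM1, tether cargo to the attached LC3. In tumour cells the pathway is known for supplying nutrients under stress and for clearing damaged mitochondria and protein aggregates.

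WIPI1, WIPI2 and BECN1 had the largest differences from the control among the 10 genes, and sequences around their annotated starts are therefore shown. They come from the RefSeq table of GRCh38.p14, in which all 10 genes were found with 14 windows between them. Each window runs from 250 bases before an annotated start to 50 after it, 5′ to 3′ on the gene's strand. Capitals mark the GC box GGGCGG and the CCAAT box CCAAT on either strand.
WIPI1, chr17:68457447-68457746, minus strand: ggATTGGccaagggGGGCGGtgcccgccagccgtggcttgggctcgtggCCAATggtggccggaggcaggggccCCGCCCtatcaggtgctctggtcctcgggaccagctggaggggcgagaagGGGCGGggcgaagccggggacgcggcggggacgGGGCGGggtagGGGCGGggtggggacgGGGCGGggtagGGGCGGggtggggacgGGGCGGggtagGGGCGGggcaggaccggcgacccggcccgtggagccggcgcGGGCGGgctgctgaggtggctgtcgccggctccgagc
WIPI2, chr7:5189983-5190282, plus strand, the first of its 2 windows: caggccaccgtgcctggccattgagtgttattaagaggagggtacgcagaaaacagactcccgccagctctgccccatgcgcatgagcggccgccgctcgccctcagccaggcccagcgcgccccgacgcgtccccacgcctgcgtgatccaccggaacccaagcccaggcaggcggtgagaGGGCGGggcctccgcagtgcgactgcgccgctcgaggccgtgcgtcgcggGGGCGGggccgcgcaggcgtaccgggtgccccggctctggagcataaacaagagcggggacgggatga
BECN1, chr17:42823830-42824129, minus strand: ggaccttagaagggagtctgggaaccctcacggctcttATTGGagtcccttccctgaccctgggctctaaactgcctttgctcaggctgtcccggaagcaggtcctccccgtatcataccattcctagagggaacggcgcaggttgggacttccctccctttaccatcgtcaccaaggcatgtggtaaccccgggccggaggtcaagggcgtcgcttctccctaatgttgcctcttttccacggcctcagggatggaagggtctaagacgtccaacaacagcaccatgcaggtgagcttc
The WIPI1 window held 10 GC boxes, in a GC content of 79.7%. At least as many occurred in 75 of 35116 windows of this length, or 0.214%, and the median window held 0. GC boxes of this window formed a repeated block between 93 and 23 bases before the start. The WIPI2 window held 2 GC boxes at a GC content of 71.3%. The BECN1 window held 0 GC boxes and 1 CCAAT box at a GC content of 58.0%. These counts hold for the annotated start used here, which for BECN1 lies just before an ATG. The bases before that start are rich in pyrimidines and end in AG, as at the end of an intron. The BECN1 window may therefore not hold the promoter, and its counts are not a comparison with WIPI1. Whether transcription starts there in these cells was not tested. The 2 motifs in capitals were chosen after these sequences were seen.

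Motifs of factors tied to autophagy genes were also searched on both strands. The E-box CACGTG, the core of the element bound by TFEB, was in 7.26% of all windows, the stress-response element TGATGNAA in 3.62% and the FOXO element GTAAACA in 3.42%. Each of these was in 0 of the 14 windows of the 10 genes. The antioxidant element TGACNNNGC, in 13.3% of all windows, was found in 1 of the 14, that of MAP1LC3B, at 46 to 38 bases before the start. GGGCGG was in 45.0% of all windows and in 10 of the 14, and CCAAT in 34.6% and 3 of the 14. A match is a run of letters and not a binding site.

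Values are intensities on a linear scale as the authors deposited them. The median of all values, 10.5, served as a floor, and lower values were raised to it before a log2 ratio was taken. Of the 30 probe sets, 24 lay above the floor in all 3 arrays, 1 in the control array only and 5 in none. Each of the 10 genes had at least 1 probe set above the floor in all arrays. The floor is not a detection call: of 4 leukocyte markers, which this culture should lack, CD79A lay at 18.9 to 23.0 and CD3E at 14.9 to 15.8, and PTPRC and CD14 were below the floor. Of 11 urothelial and carcinoma markers, 5 were above the floor in all arrays, led by KRT18 at 711 to 1315. KRT5, KRT19, KRT20, UPK1A, UPK2 and UPK3A were below it. Of the fibroblast markers COL1A1 alone was above the floor (60.1 to 63.2), and of 3 endothelial markers PECAM1 was above it in every array. TIE1, another endothelial marker, varied more: its control value was 30.9, its siRNA2 value 19.5 and its siRNA1 value 10.1, the last under the floor. CDH5 was below the floor throughout.

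At the 2-fold threshold, a log2 ratio of at least 1 or at most -1, 1 of the 30 probe sets was higher and 0 lower with siRNA1 than in the control. Among all 22909 probe sets above the floor in any array, 1.66% were 2-fold higher and 1.48% lower. The like set among the 30 is the 25 above the floor in any array. The other 5 have ratios of 0 by the floor and could not be called at either threshold. With siRNA2, 2 of the 30 were higher and 0 lower, beside 1.96% higher and 1.17% lower of all. All of these belonged to WIPI1. At 1.5-fold, 4 of the 30 were higher and 1 lower with siRNA1, against 6.7% and 5.47% of all probe sets. With siRNA2, 5 were higher and 0 lower at 1.5-fold, against 7.78% and 4.1% of all. The share of genes that were higher, among all genes 2-fold apart, was 63.9% with siRNA2 but 51.5% after median-centring of the arrays. Both comparisons use the same control array, so a high or low control value moves both ratios of a probe set together. Below, 3 intensities in a row are in the order control, siRNA1, siRNA2, and a pair of log2 ratios gives siRNA1 before siRNA2, each against the control.

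**Figure D1:**
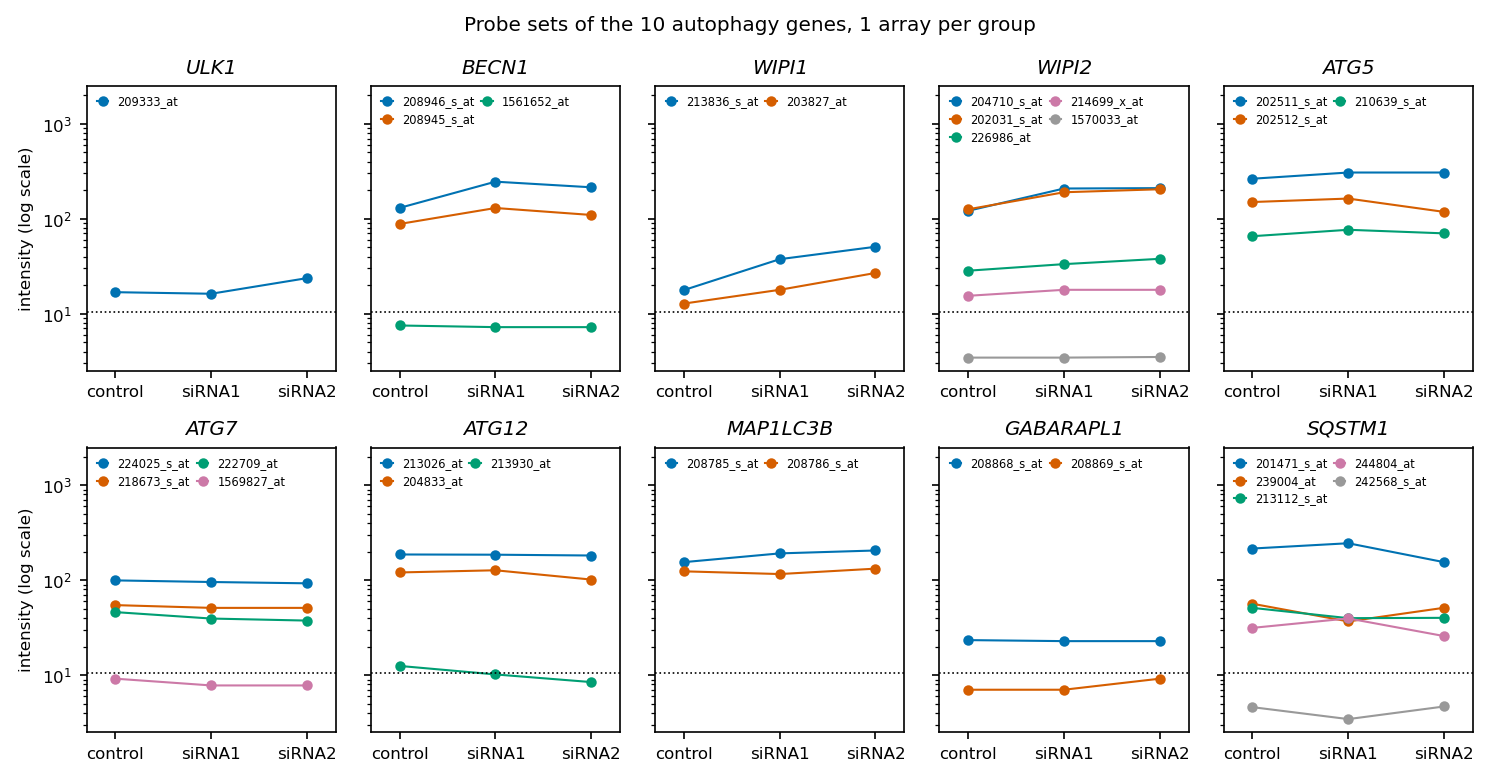
Intensity (log scale) of each single-gene probe set of the 10 genes in the control, siRNA1 and siRNA2 arrays, 1 array per group and 1 colour per probe set, with the floor of 10.5 as a dotted line. Both WIPI1 probe sets are lowest in the control and highest with siRNA2, the 2 brighter WIPI2 and BECN1 probe sets are lowest in the control, and the ATG7 and ATG12 lines are close to flat.

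ULK1, the kinase that starts autophagosome formation, had 1 probe set, 209333_at, at 16.9 in the control array, 16.2 with siRNA1 and 23.7 with siRNA2. The siRNA2 array was the high one, with a log2 ratio of 0.49 to the control, and siRNA1 was at -0.05. These values are low, near the 18.9 to 23.0 of the leukocyte marker CD79A. With the floor at the 70th percentile, 29.8, both ULK1 ratios were 0. None of the 5 genes of the ULK complex was 2-fold or 1.5-fold from the control with either siRNA. Their median log2 ratio was 0.22 with siRNA1 and 0.12 with siRNA2, beside 0.00 for all 12436 measured genes with each. The 0.00 does not show that the arrays were level. Among single-gene probe sets above the floor in every array, the median log2 intensity was 5.68, 5.71 and 5.77. The siRNA1 median was 0.09 when probe sets with _s_at and _x_at suffixes were left out. ATG13, the regulatory subunit, had ratios of 0.33 and 0.58, and ATG101, which binds ATG13, had 0.23 and 0.12. ULK2, a related kinase, was close to the floor, at 11.5, 13.5 and 10.5.

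BECN1 encodes Beclin 1, the scaffold of the lipid kinase complex. Its brightest probe set, 208946_s_at, read 130 in the control array, 246 with siRNA1 and 215 with siRNA2. That is 1.89-fold and 1.65-fold above the control, log2 ratios of 0.92 and 0.72. The second, 208945_s_at, read 88.2, 130 and 110, with ratios of 0.56 and 0.31. Both probe sets ordered the arrays alike, with the control lowest and siRNA1 highest. The third, 1561652_at, was below the floor, at 7.52, 7.23 and 7.23. As a yardstick, across 5671 genes with at least 2 probe sets above the floor in every array, the 2 brightest differed in their ratio by a median of 0.16 with each siRNA. The 90th percentile of that difference was 0.58 with siRNA1 and 0.56 with siRNA2. The 2 BECN1 probe sets differed by 0.36 and 0.41.

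The list of the Beclin 1 complex, BECN1 included, had 9 genes, all measured. With siRNA1, 2 of 9 were at least 1.5-fold higher and 0 lower, and with siRNA2 again 2 and 0. Among all measured genes, 7.14% were 1.5-fold higher and 6.03% lower with siRNA1, and 8.75% and 4.29% with siRNA2. The list's median ratios were 0.24 and 0.14. With siRNA1 the median was 0.14 when probe sets with _s_at and _x_at suffixes were left out, and 0.45 by the median over the probe sets of a gene. Apart from BECN1, the gene past 1.5-fold was ATG14, the subunit that directs the complex to autophagosome formation, at 60.7 in the control array, 107 with siRNA1 and 99.1 with siRNA2 (ratios of 0.81 and 0.71). UVRAG, a subunit of the endosomal form, had ratios of 0.45 and 0.10. BCL2, which binds and restrains Beclin 1, had 0.11 and -0.29, at an intensity of 23.9 in the control.

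WIPI1 encodes a propeller protein that binds phosphatidylinositol 3-phosphate on the forming autophagosome. Its brighter probe set, 213836_s_at, read 17.8 in the control array, 37.5 with siRNA1 and 50.7 with siRNA2. These values are 2.11-fold and 2.86-fold above the control, log2 ratios of 1.08 and 1.51. The other, 203827_at, read 12.8, 17.9 and 26.9, ratios of 0.48 and 1.07, the latter 2.10-fold. In both, the control array was lowest and the siRNA2 array highest, and siRNA1 lay between. The log2 ratios of siRNA1 to siRNA2 were -0.43 and -0.59. The 2 probe sets differed in their ratio by 0.60 with siRNA1, past the 90th percentile of 0.58 over genes, and by 0.44 with siRNA2. Among probe sets of mean intensity from 25 to 50, where the brighter one lies, 2.09% were 2-fold higher with siRNA1 and 2.54% with siRNA2. Among those from 10.5 to 25, where the other lies, 1.32% were 2-fold higher with siRNA2.

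The control values of WIPI1 were low, below the 23.0 that the leukocyte marker CD79A reached. With the floor at the 70th percentile of all values, an intensity of 29.8, the ratios of the brighter probe set were 0.33 and 0.77, and the other probe set lay at that floor in every array. With median-centred arrays its siRNA2 ratio was 0.98, just short of 2-fold. The siRNA2 array, which gave the highest WIPI1 values, also had the highest 3'/5' ratio of the control probe sets for ACTB, 14.4 against 11.9 in the control and 11.8 with siRNA1. For GAPDH that ratio was 1.35, against 1.25 and 1.29. The part of RNA quality in the WIPI1 difference was not tested.

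The genes whose pair of ratios lay nearest to that of WIPI1, of 10386 compared over these 3 arrays, were APH1B, TET3 and KDM2A. Their Euclidean distances from WIPI1 on the log2 scale were 0.04, 0.05 and 0.10. APH1B, a subunit of gamma-secretase, read 21.8, 44.9 and 62.7 in the control, siRNA1 and siRNA2 arrays. TET3, which oxidises methylcytosine, read 93.2, 192 and 260. KDM2A, a histone demethylase, read 153, 331 and 411. All 3 were lowest in the control and highest with siRNA2, as the choice by distance requires.

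WIPI2, the relative of WIPI1 that recruits the LC3 conjugation machinery through ATG16L1, had 5 probe sets. The brightest, 204710_s_at, read 121 in the control array, 208 with siRNA1 and 210 with siRNA2, ratios of 0.78 and 0.79. The next, 202031_s_at, read 126, 190 and 205, ratios of 0.60 and 0.70. These are differences of 1.72-fold and 1.73-fold for the first and 1.51-fold and 1.63-fold for the second. Both siRNA arrays lay well above the control and close to each other, at -0.01 and -0.10 for siRNA1 against siRNA2, where the sign of the first turned to 0.05 with median-centred arrays. The third, 226986_at, read 28.4, 33.3 and 37.9, with ratios of 0.23 and 0.42. The fourth, 214699_x_at, read 15.4, 17.9 and 17.9, with the same ratio of 0.21 in both. The fifth, 1570033_at, was below the floor at 3.45, 3.45 and 3.50. None of the WIPI2 probe sets above the floor was lower with either siRNA than in the control, and the smaller ratios were those of the dimmer probe sets.

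The 10 genes that bind the lipid or supply membrane had median ratios of -0.02 with siRNA1 and 0.22 with siRNA2. At 1.5-fold, 2 of 10 were higher and 0 lower with siRNA1, namely WIPI1 and WIPI2, beside 7.14% and 6.03% of all genes. With siRNA2, 4 were higher and 0 lower, beside 8.75% and 4.29% of all. These 4 were WIPI1, WIPI2, ATG2A and the related propeller protein WDR45, at 61.6, 63.8 and 105, which is named after its values were seen. ATG2A, a lipid transfer protein, was at 123 in the control array, 83.1 with siRNA1 and 192 with siRNA2. It was the 1 gene of the list 2-fold apart between the siRNA arrays, 2.31-fold lower with siRNA1. Of all measured genes, 2.4% were 2-fold lower and 1.51% higher with siRNA1 than with siRNA2. VMP1, a scramblase of the endoplasmic reticulum, also lay on opposite sides of the control, at -0.56 and 0.31.

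**Figure D2:**
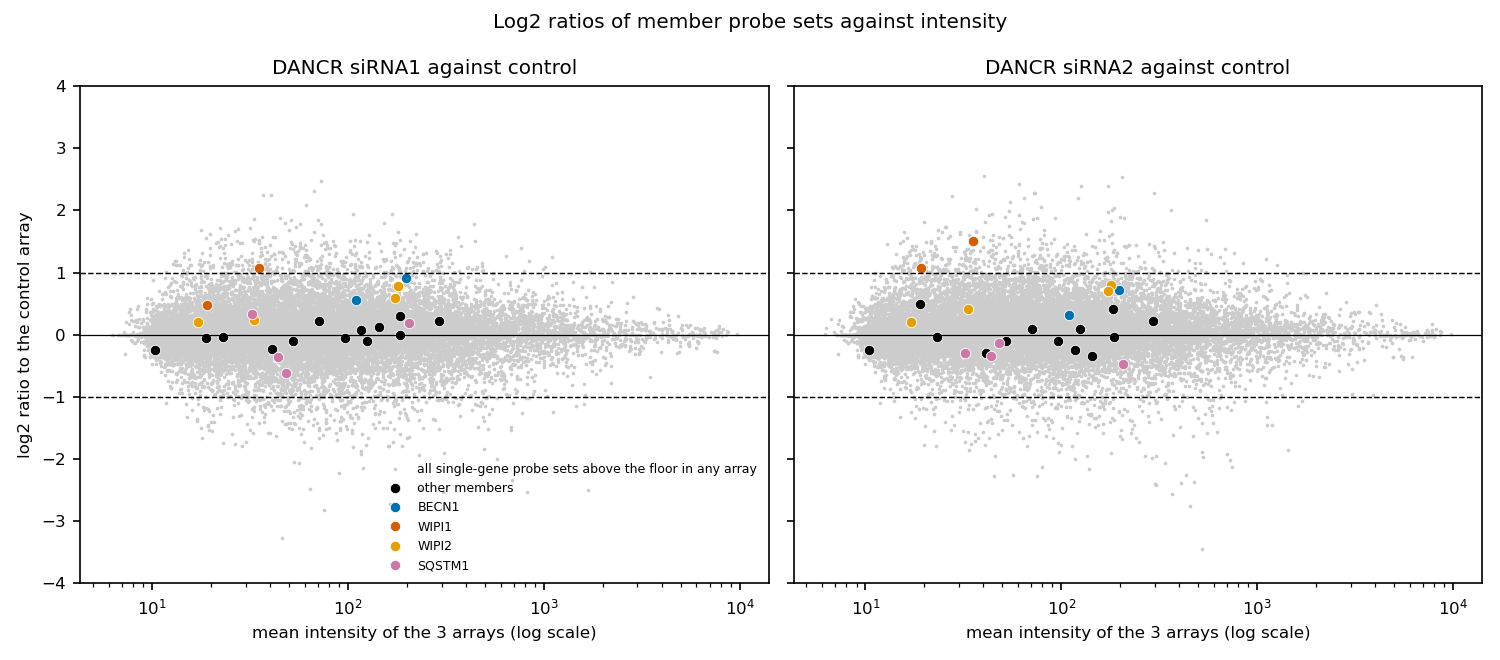
Log2 ratio to the control array (vertical axis) against the mean intensity of the 3 arrays (horizontal, log scale) for siRNA1 (left) and siRNA2 (right), with members as large points over all measured single-gene probe sets in grey and 2-fold as dashed lines. WIPI1 is past 2-fold in 1 probe set on the left and in 2 on the right, WIPI2 and BECN1 reach at most 0.79 and 0.92, and the other members lie between -0.62 and 0.49.

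ATG5, the acceptor that is joined to ATG12, had 3 probe sets above the floor. The brightest, 202511_s_at, read 264 in the control and 307 with each siRNA, a ratio of 0.22 in both. The second, 202512_s_at, read 150, 163 and 118, ratios of 0.12 and -0.34, and the dimmest, 210639_s_at, 65.5, 76.6 and 70.2, ratios of 0.22 and 0.10. The control was lowest in the brightest and the dimmest and lay between the siRNA arrays in the second. With siRNA2 the 2 brightest differed by 0.56 in their ratio, so ATG5 had no single direction with that siRNA.

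ATG7, the enzyme that activates both ATG12 and the LC3 family, had 3 probe sets above the floor. They read 99.7, 95.9 and 92.9 in 224025_s_at, 54.7, 51.2 and 51.2 in 218673_s_at and 46.2, 39.5 and 37.6 in 222709_at. Their ratios ranged from -0.22 to -0.06 with siRNA1 and from -0.30 to -0.10 with siRNA2. The control array was highest in each, by at most 1.23-fold. The fourth, 1569827_at, was below the floor, at 9.20, 7.81 and 7.81.

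ATG12, the ubiquitin-like protein that ATG7 activates, read 187 in the control array, 186 with siRNA1 and 182 with siRNA2 in its brightest probe set, 213026_at, ratios of -0.01 and -0.04. The next, 204833_at, read 121, 127 and 102, ratios of 0.08 and -0.25. The dimmest, 213930_at, at 12.5 in the control, was below the floor in both siRNA arrays, so its ratio of -0.25 is a bound. No ATG12 probe set was 1.5-fold from the control.

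The 10 conjugation enzymes had median ratios of 0.15 with siRNA1 and -0.02 with siRNA2. ATG10, which transfers ATG12 to ATG5, was the 1 gene of the list at 2-fold, with siRNA1. Its brightest probe set read 31.7, 64.6 and 56.2, 2.04-fold and 1.77-fold above the control, but the second read 24.9, 34.7 and 23.2, ratios of 0.48 and -0.10. Between the siRNA arrays, ATG4C and ATG4A passed 1.5-fold, each brighter with siRNA1, and no gene of the list passed it the other way. The shares over all genes were 5.21% in the first direction and 8.57% in the other. Both genes encode proteases that process LC3 proteins. The related ATG4B and ATG4D stayed under 1.5-fold, with log2 ratios of siRNA1 to siRNA2 of 0.08 and -0.24. ATG4C read 75.4 in the control array, 126 with siRNA1 and 72.5 with siRNA2, and ATG4A read 35.9, 47.9 and 31.5. At 2-fold, 1 of the 10 was higher and 0 lower with siRNA1, beside 1.87% and 1.75% of all genes. With siRNA2 the counts were 0 and 0, beside 2.15% and 1.21% of all.

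MAP1LC3B, the LC3 protein most used to mark autophagosomes, had 2 probe sets. The first, 208785_s_at, read 155 in the control array, 192 with siRNA1 and 206 with siRNA2, ratios of 0.31 and 0.41. The other, 208786_s_at, read 124, 116 and 133, ratios of -0.10 and 0.09. The control was lowest in the first and lay between the siRNA arrays in the second, and the probe sets differed in their ratio by 0.40 and 0.31. GABARAPL1, of the GABARAP branch, read 23.4, 22.9 and 22.9 in its brighter probe set, 208868_s_at, a ratio of -0.04 with each siRNA. Its other, 208869_s_at, was below the floor, at 7.04, 7.04 and 9.20.

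Of the 6 LC3 and GABARAP genes, 5 were measured, and 0 were 1.5-fold from the control with either siRNA. The list's medians were 0.12 and 0.10, though 0.24 with siRNA1 when probe sets with _s_at and _x_at suffixes were left out. GABARAP had ratios of 0.24 and 0.10 GABARAPL2 had 0.12 and 0.21, and MAP1LC3A had 0.00 and -0.10. MAP1LC3C was below the floor in every array.

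SQSTM1, which encodes the cargo receptor p62, had 4 probe sets above the floor that ordered the arrays differently. The brightest, 201471_s_at, read 216 in the control array, 245 with siRNA1 and 155 with siRNA2, ratios of 0.18 and -0.48. A dimmer one, 244804_at, read 31.5, 39.7 and 25.8, ratios of 0.33 and -0.29. In these 2 the siRNA1 array was highest and the siRNA2 array lowest, with siRNA1 above siRNA2 by 0.66 and 0.62 on the log2 scale. The second brightest, 239004_at, read 56.6, 36.9 and 51.3, ratios of -0.62 and -0.14, so there siRNA1 was lowest. Another, 213112_s_at, read 51.2, 39.9 and 40.2, ratios of -0.36 and -0.35. The fifth, 242568_s_at, was below the floor, at 4.61, 3.45 and 4.69. All 4 were below the control with siRNA2, and with siRNA1 they split into 2 above and 2 below. The 2 brightest differed in their ratio by 0.80 with siRNA1, past the 90th percentile of 0.58 over genes.

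Among the 13 cargo receptors, all measured, 0 were 2-fold higher and 1 lower with siRNA1, and 0 and 0 with siRNA2, beside 1.87% and 1.75% of all genes with siRNA1 and 2.15% and 1.21% with siRNA2. BNIP3, a mitophagy receptor of the outer membrane, was that gene, at 1956 in the control array, 879 with siRNA1 and 1531 with siRNA2. The dimmer of its probe sets gave ratios of -1.48 and -0.66. The related BNIP3L had -0.51 with siRNA1 and 0.37 with siRNA2. Receptors that, like p62, bind ubiquitin did not all lie on one side of the control with siRNA1. OPTN, named after its values were seen, had ratios of -0.34 and 0.05. CALCOCO2, also named after its values were seen, had 0.26 and 0.17. NBR1 had ratios of 0.63 and 0.60, from 185 in the control, and TAX1BP1 had 0.55 and 0.58, from 266. A dimmer NBR1 probe set, at 15.9 in the control, gave 0.11 and 0.00. The second TAX1BP1 probe set gave 0.70 and 0.61. The list's medians were 0.18 and 0.19, though -0.04 with siRNA1 when probe sets with _s_at and _x_at suffixes were left out.

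Set directly against each other, siRNA1 and siRNA2 differed by less than 2-fold in all 30 probe sets, 25 of them above the floor in any array. Of all probe sets above the floor in any array, 1.41% were 2-fold higher and 2.09% lower with siRNA1. At 1.5-fold, 2 were higher with siRNA1, both of SQSTM1, and 1 was lower, the dimmer of WIPI1, against 4.91% and 7.61% of all. NFE2L2, the transcription factor whose inhibitor KEAP1 is bound by p62, had the same order of arrays as the brightest SQSTM1 probe set, at 313, 383 and 236. NQO1, a target of that factor, read 498, 620 and 345, and all 3 of its probe sets were above the control with siRNA1 (0.29 to 0.39) and below it with siRNA2 (-0.72 to -0.53). The 7 measured targets had medians of 0.08 and -0.21. At 2-fold, 1 of 7 was higher and 0 lower with siRNA1 (all genes, 1.87% and 1.75%), and 0 and 0 with siRNA2 (2.15% and 1.21%). The 1 was SLC7A11, the cystine transporter, with ratios of 1.93 and -0.44. TXNRD1, a thioredoxin reductase, had -0.56 and -0.66.

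Genes after and around the 10 members were counted in the same way. Of 9 genes for fusion with the lysosome, 8 were measured, with medians of 0.16 and 0.22 and 0 at 2-fold with either siRNA. VPS33A, of the tethering complex, read 125, 238 and 196, ratios of 0.93 and 0.65. RAB7A, the late endosomal GTPase, had 0.62 and 0.51, the syntaxin STX17 0.47 and 0.63, and the tether EPG5 0.15 and 0.34. None of these 4 reached 2-fold with either siRNA. Of 52 autophagy machinery genes other than the 10, 50 were measured, with medians of 0.14 with siRNA1 and 0.10 with siRNA2 against 0.00 for all genes. Median-centring of the arrays moved a member ratio by up to 0.09, so the siRNA2 median does not set these genes apart. Among the 50 genes, 1 was 2-fold higher and 1 lower with siRNA1, close to the 1.87% and 1.75% of all genes. With siRNA2 the counts were 0 and 0, beside 2.15% and 1.21%. Between the siRNA arrays, 3 of the 60 measured autophagy genes, members included, were 1.5-fold higher with siRNA1 and 5 lower, against 5.21% and 8.57% of all genes.

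Upstream, 15 of 17 genes of the mTORC1 kinase and its AMPK control were measured, with medians of 0.12 and 0.00. At 2-fold, 1 was higher and 0 lower with each siRNA, against 1.87% and 1.75% of all genes with siRNA1 and 2.15% and 1.21% with siRNA2. With siRNA1 it was SESN2, a stress-induced inhibitor of mTORC1, at 35.8, 86.9 and 60.3. With siRNA2 it was DDIT4, another such inhibitor, at 142, 160 and 317. PRKAA2, a catalytic subunit of AMPK, had ratios of 0.18 and 0.87, PRKAG1, its regulatory subunit, 0.48 and -0.66, and AKT1S1, a subunit of mTORC1, 0.75 with each. The dimmer AKT1S1 probe set read 14.9 in every array. The stress-induced factor DDIT3 had 1.94 and 0.91. The 8 integrated stress targets had medians of 1.17 and 0.23, with 6 of 8 at 2-fold higher and 0 lower with siRNA1 (all genes, 1.87% and 1.75%), and 0 and 1 with siRNA2 (all genes, 2.15% and 1.21%). DDIT3, also in this list, was highest with siRNA1, followed by CHAC1 at 1.88, and VLDLR was the lower gene with siRNA2 at -1.23. Among the 7 measured transcription factors tied to autophagy genes, 1 was 2-fold higher and 0 lower with siRNA1, beside 1.87% and 1.75% of all genes. It was DDIT3, already counted among the stress targets, as SESN2 is in both the mTORC1 list and the stress list. With siRNA2, 0 were higher and 0 lower, beside 2.15% and 1.21%.

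Genes of the lysosome, where autophagic cargo is degraded, and of the TFEB family that controls them gave 19 measured members of 22. Their medians were -0.10 with siRNA1 and 0.00 with siRNA2. At 2-fold, 0 of the 19 were higher and 1 lower with siRNA1, against 1.87% and 1.75% of all genes, and 0 and 0 with siRNA2, against 2.15% and 1.21%. The 1 was MCOLN1, the lysosomal calcium channel, at 46.2 in the control array, 15.4 with siRNA1 and 58.4 with siRNA2. CTSA, a lysosomal carboxypeptidase, read 404, 253 and 425, and TPP1, a peptidase, 99.8, 95.9 and 131. A dimmer TPP1 probe set, at 28.6 in the control, had ratios of -0.21 and 0.43. Those at 36.9 and 14.1 in the control had other orders, with 0.12 and 0.00 and with 0.81 and 0.47. MITF, a relative of TFEB, had ratios of -0.46 and -0.85 at 24.5 in the control.

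**Figure D3:**
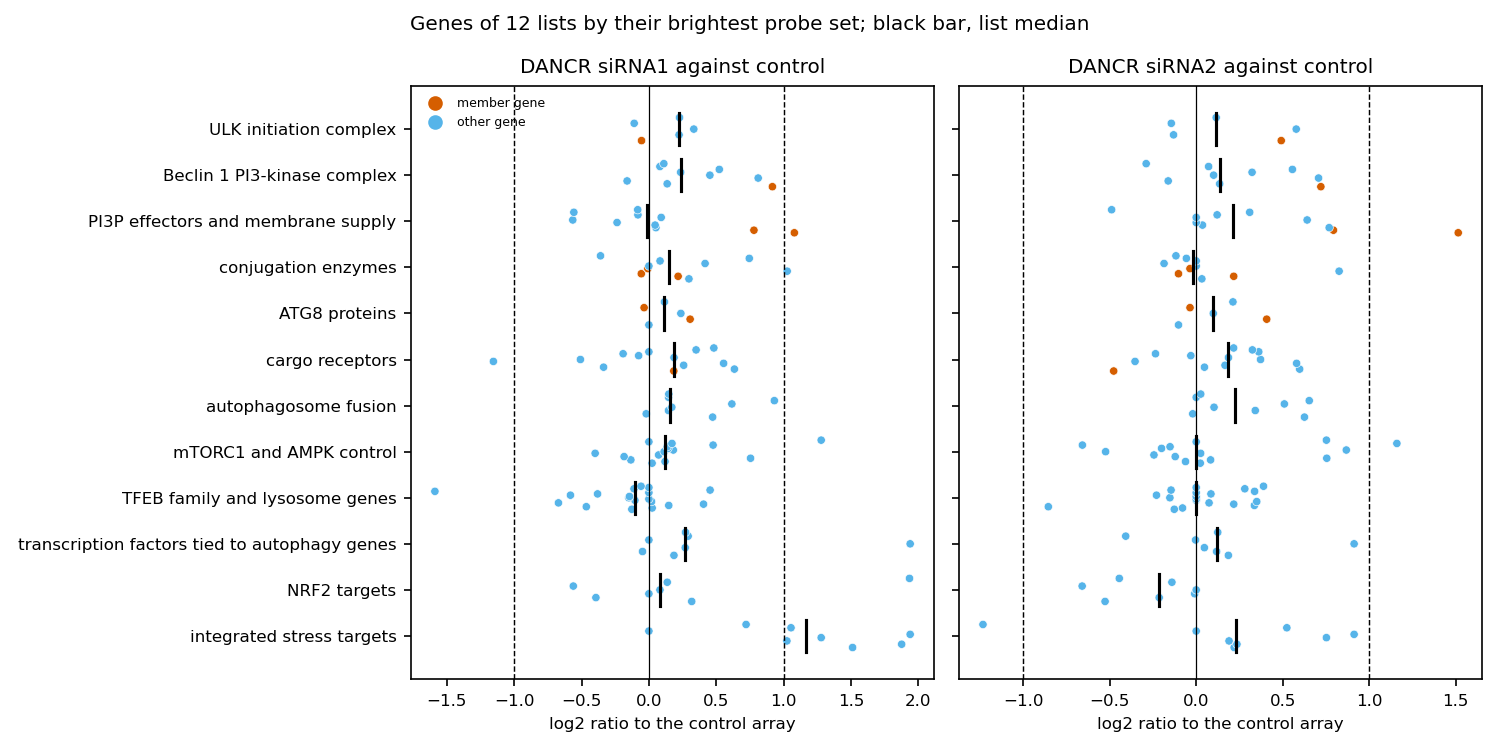
Log2 ratio to the control array (horizontal axis) of each measured gene of 12 lists, by its brightest probe set, for siRNA1 (left) and siRNA2 (right), with the 10 members in orange, other genes in blue, list medians as black bars and 2-fold as dashed lines. The medians of the 7 autophagy lists lie between -0.02 and 0.24, WIPI1 is the one member past 2-fold, and the stress target list has the median farthest from 0, at 1.17 with siRNA1.

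Many values recur in this table, which bears on how finely small ratios can be read. In 8 of the 30 probe sets at least 2 arrays had the same value, as for ATG5 at 307 with both siRNAs. Of the 64 member values above 20, 29 ended in 1 of the 3 decimal endings that 48.7% of all such values share. Where values recur, a ratio is exactly 0 or the same with both siRNAs.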

How the data were processed

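Total RNA of 3 UM-UC-3 cultures was measured on 1 Affymetrix array each, per the labels. The deposited table holds intensity values on a linear scale, brought to a common scale by the authors with a method not given in the sources used here. The submitters' processing notes name GCOS 1.4. Probe sets were named through the platform annotation, with symbols updated by gene identifier for 41037 of 41091 single-gene probe sets. The 1801 probe sets naming several genes and the 11777 naming none were not used. Values under the 50th percentile (10.5) were raised to it and log2 ratios taken, with 2-fold as the threshold. A gene or probe set counted as measured with 1 array above that floor, which left 12436 genes and 22909 probe sets, and the brightest probe set stood for a gene. With 1 array per group no p-value was computed, and the number of arrays limits the precision.

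The members, the 12 gene lists and the alternatives were chosen with earlier results of these data known. Besides the 10 members, the text names DANCR, the marker genes, the 2 genes of each list with the largest ratio in each comparison and the 3 genes nearest to WIPI1 among those of at least its mean intensity divided by 2. Of the 123 list genes, 118 had a single-gene probe set. The ratio script was tested on simulated data. Alternatives were other array scalings, floors, thresholds and choices of probe set. Python 3.11.15, numpy 2.4.6, pandas 2.3.3 and matplotlib 3.10.9 were used. The sequence windows lie around RefSeq's annotated starts, and no position was taken from the array files, which name no genome build.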

Additional observations from a re-analysis of the deposited data

Results flagged for a closer look

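Member probe sets that lay above the control with 1 siRNA and below it with the other are given here. The difference between the siRNAs was not tested, as each was 1 array. They are ULK1 (-0.055 with siRNA1 and 0.49 with siRNA2, log2 ratio to the control), the second ATG5 probe set (0.12 and -0.34), the second ATG12 probe set (0.076 and -0.25) and the dimmer MAP1LC3B probe set (-0.095 and 0.094). For SQSTM1 they are the brightest probe set (0.18 and -0.48) and the dimmer one at 31.5 in the control (0.33 and -0.29). Each of these ratios is under 1.5-fold, and both of ULK1 were 0 with the 70th percentile floor. Outside the single-gene probe sets, the one shared by GABARAPL1 and GABARAPL3 read 16.4 in the control array, 14.1 with siRNA1 and 25.9 with siRNA2, and the signal cannot be assigned to either gene.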

How the results depend on the processing

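No paired analysis was possible because each group had 1 array. Of 450 member ratios under other scalings and floors, 446 kept their side of 2-fold and none past 2-fold changed sign. The other 4 are the WIPI1 ratios given above with the 70th percentile floor, and 0.98 with median-centring. Between the siRNA arrays, the ratios near 0 of the brightest WIPI2 probe set and of SQSTM1 (-0.01 each) turned to 0.05 with median-centring. The count of member probe sets 2-fold higher with siRNA1 (1) became 0 with the 70th percentile floor, at 3-fold and without _s_at and _x_at probe sets, and 4 at 1.5-fold, where 1 was lower. With siRNA2 (2) it became 1 with median-centring and without those probe sets, 0 with the 70th percentile floor and at 3-fold, and 5 at 1.5-fold. Between the siRNA arrays 2 were higher and 1 lower at 1.5-fold. Of the 60 measured autophagy list genes, 2 were 2-fold higher with siRNA1 and 1 lower, beside 1.87% and 1.75% of all genes. The 2 became 1 with median-centring, the 70th percentile floor or without those probe sets. They became 0 at 3-fold or by the median over probe sets. At 1.5-fold, 9 were higher, beside 7.14% of all genes, and the 1 lower gene became 0 at 3-fold. With siRNA2, 1 was higher and 0 lower, beside 2.15% and 1.21% of all genes. The 1 became 0 with the 70th percentile floor or at 3-fold, and 10 at 1.5-fold, beside 8.75% of all genes. Between the siRNA arrays, 1 was lower with siRNA1, beside 2.4% of all genes. It became 2 with the 30th percentile floor or no floor and 0 at 3-fold. At 1.5-fold, 5 were lower and 3 higher, beside 8.57% and 5.21% of all genes. The cause was not tested beyond what each setting removes. Of 294 list medians under alternatives, 270 moved by under 0.1. Median-centring changed a member ratio by at most 0.09, which is under that limit. List medians with siRNA2 such as 0.10 and 0.14 are of like size, so the count does not show that they were stable.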
